A study of Mus musculus with 12 samples.

Results

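GABA and glycine signaling was followed through 29 genes, taken by symbol from the rows of the deposited count table, which names 39756 genes. They encode subunits of the GABA-A, GABA-B and glycine receptors, the receptor scaffold gephyrin, the enzymes and transporters that make, load, take up and break down GABA, and the chloride cotransporters of neurons. All 29 symbols were found once, and 27 of them passed the filter on low counts, as did 17558 genes in all. Gabra6 and Gabrr1 did not pass it.

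RNA was sequenced from 1 brain hemisphere of each of 12 mice, which the labels call ischemic in every group, although Sham mice had no occlusion. There were 4 mice in each group, labelled C57BL/6J with no engineered allele named. In the Vehicle and LJP groups the middle cerebral artery was blocked for a time (tMCAO), a filament model of ischemic stroke with reperfusion (I/R). The LJP group received Laminaria japonica polysaccharide, a sulfated polysaccharide of brown kelp, by the intragastric route, and the Vehicle group received saline. The study's methods state daily dosing that began before the surgery and continued after it. Sham mice had surgery without the occlusion and received saline. Per the study's methods the animals were male, and after comparing doses the study went on with the middle one (LJP-M). No source used here ties a dose or a sampling time to the sequenced mice. The labels place all 12 mice in a single batch. Each library is a separate mouse, so the p-values measure the spread between animals.

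GABA and glycine are the main inhibitory transmitters of the nervous system. GABA-A and glycine receptors are pentameric chloride channels, so the chloride gradient set by cation-chloride cotransporters decides whether their opening inhibits a neuron, whereas GABA-B receptors act through G proteins. In the forebrain, GABA is released by interneurons and by the medium spiny neurons of the striatum, a region supplied by the middle cerebral artery, while glycine transmission is best known from the hindbrain and spinal cord.

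Of the 18 receptor subunit genes tested with edgeR, 10 had lower transcript levels in Vehicle than in Sham mice, and the other 8 were not called. DESeq2 also called Glra2 and Glra3 lower, where it called 15.7% of all genes lower. All 4 tested alpha subunits and both beta subunits of the GABA-A receptor, the delta subunit, both GABA-B subunits, the glycine receptor beta subunit, gephyrin, the GABA transaminase Abat and the chloride exporter Slc12a5 were lower, 13 of 27 members (48.1%), and none was higher (edgeR adjusted p below 0.05), while 17.3% of all tested genes were lower and 22.7% higher. Of 10 neuron markers 5 were lower in Vehicle mice too, and 5 of the 13 members were still called lower when counts were scaled to those markers, a scale on which 4% of all genes were lower and 47% higher. All 9 markers of striatal medium spiny neurons were lower, with a median log2 fold change of -2.04, against -0.39 for the neuron markers. Without that scaling, the largest differences of the 13 members were in Gabrd, Gabra4 and Gabra2, at log2 fold changes of -1.27, -1.15 and -1.04. In LJP mice no member was called against Vehicle with edgeR, beside 0% of all genes higher and 0.0228% lower. Against Sham only Gabra4 was called, with levels between those of the other groups, beside 0.9% of all genes lower and 3.85% higher. These counts depended on the fit. DESeq2 called 3 members higher in LJP than in Vehicle mice (3.88% of all genes higher), and leaving out Vehicle 3 gave 8 (8.46%). Fitting only LJP and Sham mice gave 10 lower members (11.8% of all genes lower). The call of Gabra4 against Sham was lost without Sham 1 or LJP 3. Between Vehicle and Sham, Gabbr1 lost its call in 8 of 12 leave-one-out fits and Gabbr2 in 3. Gabbr1, Gabbr2 and Slc12a5 were not called when only Vehicle and Sham mice were fitted (11.6% of all genes lower). In this list the GABA-synthesizing enzymes Gad1 and Gad2 and the vesicular transporter Slc32a1 were not called in any of the 3 comparisons.

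Total counts ranged from 17960353 to 22216315 per mouse. Levels are given as CPM (counts scaled to the TMM-normalized size of each library), or as RPKM (the same per kilobase of the gene length in the table) where genes are compared with each other. The 10 neuron markers checked (among them Rbfox3, Snap25 and Map2) were all detected, with summed levels of 7712 to 8391 CPM in Sham, 4616 to 7059 in Vehicle and 6751 to 7993 in LJP mice, and 5 of the 10 were lower in Vehicle than in Sham mice. All 9 markers of striatal medium spiny neurons (among them Drd1, Drd2 and Ppp1r1b) were lower, with sums of 3053 to 3593, 246 to 1257 and 1136 to 2065 CPM in the same order of groups. Of the 11 interneuron markers 3 were lower, with sums of 543 to 583, 283 to 528 and 481 to 531 CPM, and 7 of 8 microglia and macrophage markers were higher, with sums of 210.3 to 217, 461 to 659 and 361 to 629 CPM. Vehicle 2 stood apart, with the lowest neuron sum (4616 CPM) and a sum of 1472 CPM over 7 meningeal fibroblast markers, against 144 to 172 in Sham mice. Of those 7 markers 5 were higher in Vehicle than in Sham mice, with sums of 187 to 1472 CPM in Vehicle and 126 to 182 in LJP mice. No gene of these lists was at 0 in every mouse of a group. In bulk tissue, fewer cells of a type and less RNA per cell cannot be told apart, and the part of these shifts in cell makeup in the results that follow was not tested beyond the scaling to neuron markers.

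Per length, the members spanned a wide range in Sham mice. Gabbr1 (162 ± 1.39 RPKM, SD, n = 4) and Slc12a5 (149 ± 2.23) were the highest. Abat (76.0 ± 6.57), Gad1 (73.4 ± 4.93), Gabbr2 (70.8 ± 4.53) and Slc32a1 (65.9 ± 4.05) followed, and neighbours among these 4 differed by less than the sum of their SDs. Among the ionotropic receptor subunits, Glrb (53.2 ± 2.24 RPKM), Gabrd (43.8 ± 1.53), Gabrb2 (25.6 ± 2.11), Gabra4 (22.7 ± 0.625) and Gabra3 (20.6 ± 1.21) led. Gabra5 (11.3), Gabrb1 (10.3) and Gabra2 (6.91) were lower. The glycine receptor alpha subunits were far below their beta partner, at 2.82 RPKM for Glra2, 0.843 for Glra3 and 0.320 for Glra1. Gabrq (0.381), Gabre (0.311) and Gabrr2 (0.195) were near the lower end. The alpha-6 subunit Gabra6, a marker of cerebellar granule cells, had 0 to 4 counts per mouse (15 in total) and the rho-1 subunit Gabrr1 had 0 to 3 (13 in total). For these 2 genes no fold is given, and their two-sided exact permutation p (4 against 4 mice, smallest possible 0.0286) ranged from 0.2 to 1 over the 3 comparisons.

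Several GABA-A subunit genes lie side by side in the genome, and the deposited positions of all 29 members equal those of RefSeq on GRCm38. Chromosome 5 holds Gabrg1, Gabra2, Gabra4 and Gabrb1 in that order, and Gabra4 (minus strand) and Gabrb1 (plus strand) are transcribed away from each other from start regions whose gene spans share 388 bases. The start regions of the 3 members of this cluster that differed between Vehicle and Sham are shown, 250 bases before to 50 bases after each RefSeq start site (GRCm38.p6), 5′ to 3′ on the gene's own strand. The windows are chr5:71658259-71658558 for Gabra4, chr5:71657671-71657970 for Gabrb1 and chr5:71095800-71096099 for Gabra2. Capitals mark matches on either strand to the letters GGGCGG, called a GC box, or to the letters of the CCAAT box.
Gabra4: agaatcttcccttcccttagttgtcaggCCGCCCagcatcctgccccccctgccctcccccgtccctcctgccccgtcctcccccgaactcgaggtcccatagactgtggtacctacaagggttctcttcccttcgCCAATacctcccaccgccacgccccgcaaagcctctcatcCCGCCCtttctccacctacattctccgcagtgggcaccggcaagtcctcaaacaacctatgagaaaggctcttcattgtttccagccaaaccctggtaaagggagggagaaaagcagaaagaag
Gabrb1: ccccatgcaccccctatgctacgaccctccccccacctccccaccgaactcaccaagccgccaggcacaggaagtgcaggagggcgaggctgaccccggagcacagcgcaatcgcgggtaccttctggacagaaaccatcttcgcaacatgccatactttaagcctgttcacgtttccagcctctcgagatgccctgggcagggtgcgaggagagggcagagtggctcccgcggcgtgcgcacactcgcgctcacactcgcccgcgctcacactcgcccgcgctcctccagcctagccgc
Gabra2: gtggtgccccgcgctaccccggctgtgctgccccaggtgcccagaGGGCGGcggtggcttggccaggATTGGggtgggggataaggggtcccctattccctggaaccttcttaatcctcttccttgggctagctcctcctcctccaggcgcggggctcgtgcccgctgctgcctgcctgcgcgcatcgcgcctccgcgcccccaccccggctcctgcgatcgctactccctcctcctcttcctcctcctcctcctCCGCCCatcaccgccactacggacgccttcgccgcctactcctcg
Gabra4 held GC boxes at -222 and -74 and a CCAAT box at -114 from its start site, Gabra2 held GC boxes at -205 and 6 and a CCAAT box at -183, and the Gabrb1 window held neither set of letters. Of the 32 windows that RefSeq gives for 25 members, 18 held GGGCGG and 15 held CCAAT, while 35.7% and 37.4% of all 32851 windows did. The other motifs searched on both strands were TATAAA (5 of 32 member windows, 13.6% of all), CACGTG (1 of 32, 7.15% of all), TGACGTCA (0 of 32, 1.79% of all) and GCGTGGGCG (0 of 32, 0.612% of all, and overlapping GC boxes by its letters). These are letter matches, not binding sites. No window was found in the table for Abat, Gabrd, Glra1 and Slc12a2.

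Comparing Vehicle with Sham shows how the inhibitory genes stood after ischemia and reperfusion without the polysaccharide. At an unadjusted p below 0.05, 15 members were lower and none higher (22.8% of all genes lower, and 4757 of 17558 genes higher). The median log2 fold change of the members was -0.49, and over all genes it was 0.00. Without Vehicle 2 the members' median was -0.30. In total 23 members had a negative and 4 a positive log2 fold change. The 13 called members were also those in which every Vehicle mouse lay below every Sham mouse, a pattern seen in 18.8% of all genes.

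**Figure D1:**
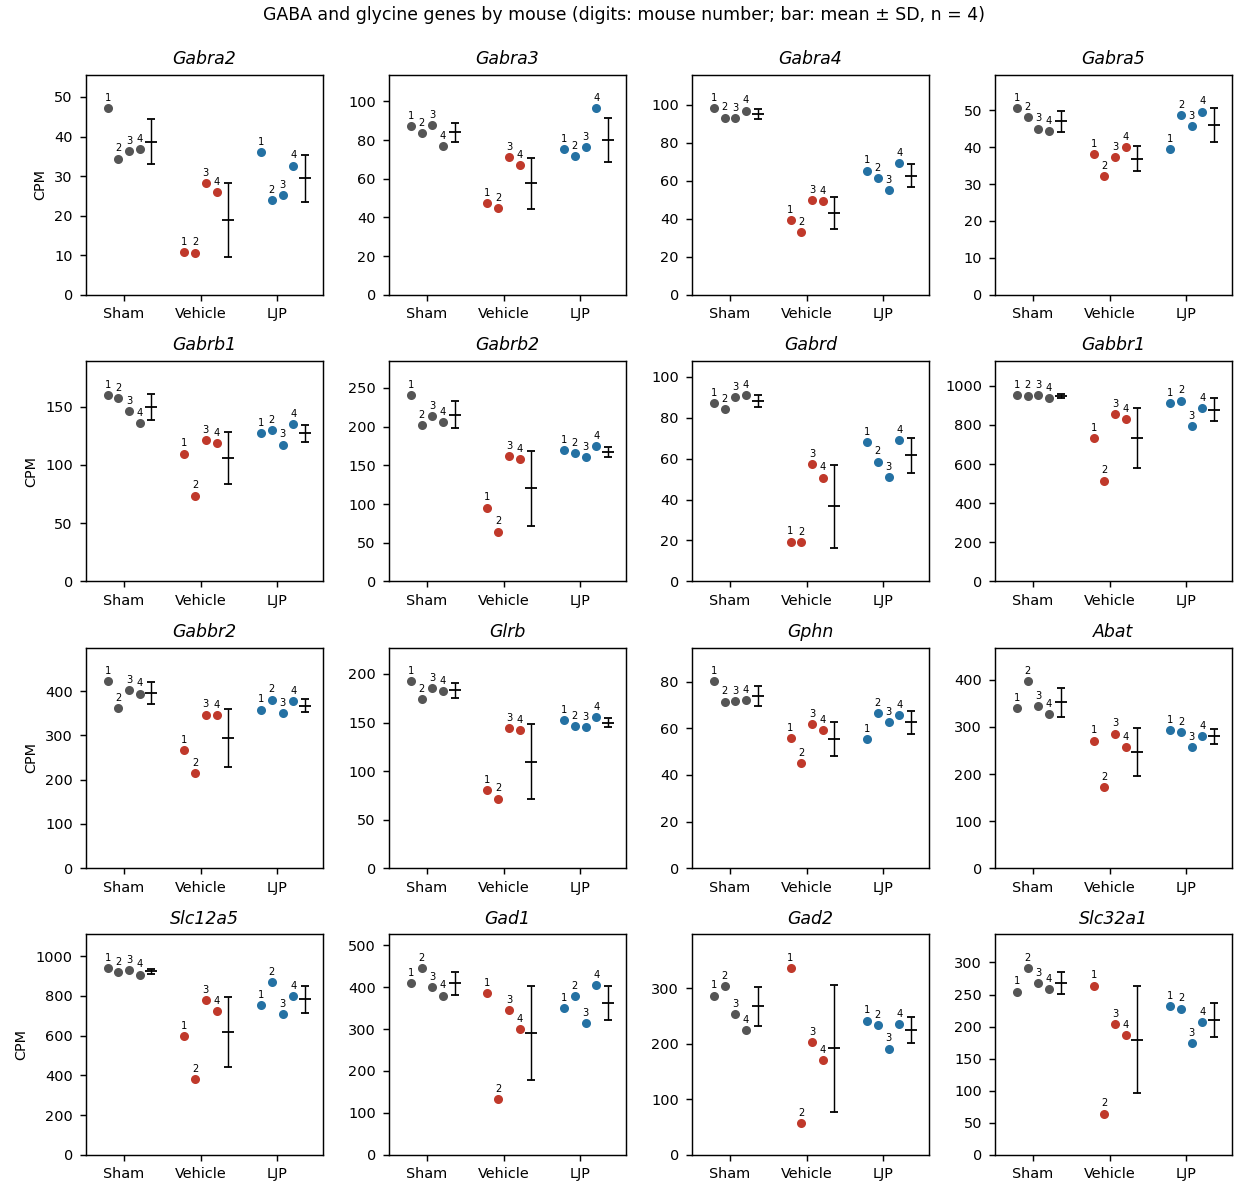
Levels of the 13 members that differed between Vehicle and Sham, and of Gad1, Gad2 and Slc32a1, in CPM on axes that start at 0. Each point is a mouse with its number, and the bar beside each group is the mean ± SD of 4 mice. Vehicle mice 1 and 2 lie below Vehicle mice 3 and 4 in Gabrd, Gabra2, Gabrb2 and Glrb. In Gad1, Gad2 and Slc32a1 Vehicle 2 lies lowest, and Vehicle mice 3 and 4 also lie below every Sham mouse.

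Alpha subunits form part of the GABA binding site and set much of a receptor's pharmacology and location, and the 4 tested were all lower. Gabra4 (alpha-4, found mostly in extrasynaptic receptors; Entrez Gene 14397, chromosome 5 from 71569734 to 71658308, minus strand of GRCm38) had the smallest p of the members. It stood at 98.3, 93.3, 93.0 and 97.0 CPM in Sham, 39.4, 32.9, 50.1 and 49.5 in Vehicle and 65.4, 61.3, 55.0 and 69.2 in LJP mice. The 3 groups did not overlap, with LJP between the others. Vehicle was lower than Sham at 43.0 ± 8.30 against 95.4 ± 2.63 CPM (SD, n = 4), a fold of 0.450 (log2 fold change -1.15, SE 0.12, adjusted p = 0.000108 in edgeR), and it stayed called in all 12 leave-one-out fits. Gabra4 shares 46 exonic bases with Gabrb1, 0.756% of its exonic bases in GENCODE M21, so few of its reads could belong to either gene.

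Gabra2 (alpha-2, a synaptic subunit of forebrain neurons; Entrez Gene 14395, chromosome 5 from 70958392 to 71095849, minus strand) stood at 47.2, 34.4, 36.3 and 36.9 CPM in Sham, 10.8, 10.7, 28.1 and 25.9 in Vehicle and 36.1, 23.9, 25.2 and 32.7 in LJP mice. Vehicle mice fell into a low pair, mice 1 and 2, and a pair nearer the Sham mice, and the LJP mice overlapped Sham. Vehicle was lower than Sham (log2 fold change -1.04, SE 0.29, adjusted p = 0.0147 in edgeR). Gabra3 (alpha-3; Entrez Gene 14396, chromosome X from 72432676 to 72656919, minus strand) stood at 87.4, 83.7, 87.5 and 77.0 CPM in Sham, 47.5, 44.8, 71.0 and 67.0 in Vehicle and 75.4, 71.7, 76.1 and 96.5 in LJP mice, again with Vehicle 1 and 2 lowest (log2 fold change -0.54, SE 0.15, adjusted p = 0.0117 in edgeR). Gabra5 (alpha-5, best known from extrasynaptic receptors of the hippocampus; Entrez Gene 110886, chromosome 7 from 57407669 to 57591016, minus strand) stood at 50.6, 48.2, 45.0 and 44.3 CPM in Sham, 38.1, 32.1, 37.3 and 40.1 in Vehicle and 39.5, 48.8, 45.7 and 49.6 in LJP mice. Its difference was the smallest of the 13 (log2 fold change -0.35, SE 0.094, adjusted p = 0.0113 in edgeR). The counts of another gene whose span overlaps it came to 469% of its own, and the exonic bases shared by that pair were not counted.

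Beta subunits complete the GABA site and are needed for receptors to reach the surface. Gabrb1 (Entrez Gene 14400, chromosome 5 from 71657921 to 72149572, plus strand) stood at 160.2, 157, 146 and 136 CPM in Sham, 109.7, 73.7, 121 and 119 in Vehicle and 127, 130.1, 118 and 135 in LJP mice, and Vehicle 2 lay furthest below the Sham mice (log2 fold change -0.50, SE 0.13, adjusted p = 0.0101 in edgeR). Gabrb2, partner of many synaptic receptors (Entrez Gene 14401, chromosome 11 from 42419515 to 42632591, plus strand), stood at 241, 202, 214 and 206 CPM in Sham, 95.4, 64.5, 162 and 158 in Vehicle and 169, 165, 160.2 and 175 in LJP mice. Vehicle 1 and 2 lay below Vehicle 3 and 4, which overlapped the LJP mice, and Vehicle was lower than Sham (log2 fold change -0.84, SE 0.22, adjusted p = 0.0109 in edgeR).

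Gabrd encodes the delta subunit of extrasynaptic receptors that carry tonic inhibition and often pair with alpha-4 (Entrez Gene 14403, chromosome 4 from 155384979 to 155398098, minus strand). It stood at 86.9, 84.3, 90.0 and 91.1 CPM in Sham, 19.5, 19.3, 57.1 and 50.7 in Vehicle and 67.9, 58.5, 50.7 and 69.2 in LJP mice. Sham mice were tightly grouped (coefficient of variation 3.50%), and Vehicle mice were spread (54.9%), with mice 1 and 2 far below mice 3 and 4. The fold was 0.415, the lowest of the members (log2 fold change -1.27, SE 0.30, adjusted p = 0.00645 in edgeR). Cfap74, a gene whose span overlaps Gabrd but shares 0 exonic bases with it in GENCODE M21, had 28.2% as many counts as Gabrd and was also lower in Vehicle mice (log2 fold change -0.52, edgeR adjusted p = 0.0210).

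The gamma subunits place receptors at synapses, and neither of the 2 listed here was called. Gabrg1 had a log2 fold change of -0.49 (adjusted p = 0.122, edgeR), with 12.1, 4.77, 11.8 and 12.8 CPM in the Vehicle mice against 12.8 to 15.9 in Sham. Gabrg3 had -0.34 (adjusted p = 0.192, edgeR), and was called lower when Vehicle 1 was left out (edgeR adjusted p = 0.0219). Without Vehicle 2 the values were nearer 0, at -0.25 for Gabrg1 and -0.17 for Gabrg3. The less abundant subunits Gabre (epsilon), Gabrq (theta) and Gabrr2 (rho-2) had positive values with wide errors, at 0.47 (adjusted p = 0.574, edgeR), 0.084 (adjusted p = 0.928, edgeR) and 0.78 (adjusted p = 0.246, edgeR). Leaving out each mouse moved Gabre between 0.030 (without Vehicle 1) and 1.32 (without Sham 2) and Gabrr2 between 0.31 (without Vehicle 2) and 1.32 (without Sham 2). Gabrq lay at 4.22, 0.129, 3.01 and 2.91 CPM in the Vehicle mice, as wide a spread as in the Sham mice (1.38 to 4.96).

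Gabbr1 and Gabbr2 encode the paired subunits of the GABA-B receptor, which binds GABA through the first and couples to G proteins through the second. Gabbr1 (Entrez Gene 54393, chromosome 17 from 37045966 to 37074305, plus strand) stood at 950.5, 950.1, 954 and 936 CPM in Sham, 731, 515, 855 and 830.0 in Vehicle and 909.6, 924, 793 and 887 in LJP mice. Sham mice differed little from each other (coefficient of variation 0.860%) and all Vehicle mice lay below them, most of all Vehicle 2 (log2 fold change -0.37, SE 0.13, adjusted p = 0.0405 in edgeR). Gabbr1 was no longer called in 8 of the 12 leave-one-out fits (each Sham mouse, Vehicle 1, and LJP 1, 2 and 4), with adjusted p between 0.0520 and 0.0861. Without Vehicle 2 its log2 fold change was -0.24. Gabbr2 (Entrez Gene 242425, chromosome 4 from 46662318 to 46991714, minus strand) stood at 422, 361, 403 and 394 CPM in Sham, 267, 214, 347 and 346 in Vehicle and 358, 381, 351 and 378 in LJP mice (log2 fold change -0.43, SE 0.13, adjusted p = 0.0219 in edgeR), and it lost its call without Sham 1 (0.0657), Sham 3 (0.0549) or Vehicle 1 (0.0568).

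Glycine receptors and inhibitory synapses share the scaffold protein gephyrin, which binds the glycine receptor through its beta subunit. Glrb, that beta subunit (Entrez Gene 14658, chromosome 3 from 80843598 to 80913660, minus strand), stood at 192, 174, 185 and 182 CPM in Sham, 80.5, 71.7, 144 and 142 in Vehicle and 152, 147, 145 and 156 in LJP mice. Vehicle 1 and 2 were low, Vehicle 3 and 4 lay just under the LJP mice, and the LJP mice were tightly grouped under the Sham mice (log2 fold change -0.74, SE 0.19, adjusted p = 0.00916 in edgeR). Gphn, gephyrin (Entrez Gene 268566, chromosome 12 from 78217325 to 78684772, plus strand), stood at 80.2, 71.5, 71.7 and 72.3 CPM in Sham, 55.8, 45.1, 61.8 and 59.3 in Vehicle and 55.3, 66.6, 62.8 and 65.5 in LJP mice (log2 fold change -0.41, SE 0.10, adjusted p = 0.00644 in edgeR). The alpha subunits were not called with edgeR, at -0.68 (adjusted p = 0.0635, edgeR) for Glra2, -0.60 (adjusted p = 0.0619, edgeR) for Glra3 and -0.12 (adjusted p = 0.843, edgeR) for Glra1. DESeq2 called Glra2 (adjusted p = 0.0398) and Glra3 (0.0399) lower, where it called 15.7% of all genes lower. Leaving out Vehicle 3 or Vehicle 4 brought Glra2 (edgeR adjusted p = 0.0184 and 0.0330) and Glra3 (0.0258 and 0.0452) under the threshold. Slc6a5, the neuronal glycine transporter, lay between 0 and 0.172 CPM over the 12 mice, and the 7 hindbrain and spinal markers that include it summed to at most 0.771 CPM in any mouse.

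The presynaptic genes had negative values too but were not called. Gad1 (GAD67), which makes most of the brain's GABA, stood at 409.9, 446, 399.7 and 380.2 CPM in Sham, 386, 132, 345 and 299 in Vehicle and 350.1, 379.6, 314 and 406 in LJP mice. Gad2 (GAD65), the synapse-associated form, stood at 287, 305, 253 and 225 CPM in Sham, 337, 57.8, 204 and 170.2 in Vehicle and 242, 233, 191 and 235 in LJP mice. Slc32a1 (VGAT), which loads GABA and glycine into vesicles, stood at 254, 291, 268 and 259 CPM in Sham, 264, 64.3, 203 and 187 in Vehicle and 231, 228, 175 and 207 in LJP mice. In all 3 genes Vehicle 2 was the lowest of the 12 mice, and Vehicle 1 lay within or above the range of the Sham mice. Their log2 fold changes against Sham were -0.49 (adjusted p = 0.116, edgeR), -0.48 (adjusted p = 0.298, edgeR) and -0.58 (adjusted p = 0.134, edgeR). Leaving out Vehicle 1 brought Gad2 and Slc32a1 under the threshold (log2 fold changes -0.90 and -0.82, edgeR adjusted p = 0.0458 and 0.0490), and leaving out Vehicle 2 did not. Without Vehicle 2 the values were nearer 0, at -0.26 for Gad1, -0.18 for Gad2 and -0.30 for Slc32a1.

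Abat, the transaminase that breaks GABA down in mitochondria (Entrez Gene 268860, chromosome 16 from 8513429 to 8621568, plus strand), was lower in Vehicle mice. It stood at 340.2, 397, 344 and 328 CPM in Sham, 271, 172, 286 and 257 in Vehicle and 293, 289, 256 and 280.4 in LJP mice (log2 fold change -0.52, SE 0.13, adjusted p = 0.00986 in edgeR). Vehicle 2 was again the lowest, and the LJP mice also lay below all Sham mice. Slc6a11, a GABA transporter of astrocytes, stood at 171, 239, 215 and 189 CPM in Sham, 125, 124, 192 and 201 in Vehicle and 181, 181, 149 and 184 in LJP mice without being called (log2 fold change -0.34, SE 0.17, adjusted p = 0.113 in edgeR). Leaving out Vehicle 4 brought it under the threshold (0.0363). Slc6a13, a GABA transporter of the meninges, had 2.95, 14.6, 12.9 and 7.87 CPM in the Vehicle mice, a range wider than that of the Sham mice (7.84 to 8.71), and a log2 fold change of 0.18 (adjusted p = 0.698, edgeR).

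The cotransporters set the chloride gradient that GABA-A and glycine receptors draw on. Slc12a5 (KCC2), the neuronal chloride exporter (Entrez Gene 57138, chromosome 2 from 164960846 to 164999731, plus strand), stood at 939, 918, 927 and 907 CPM in Sham, 597, 381, 776 and 724 in Vehicle and 751, 867, 707 and 799.7 in LJP mice. All Vehicle mice lay below all Sham mice, with Vehicle 2 lowest (log2 fold change -0.58, SE 0.17, adjusted p = 0.0184 in edgeR). Slc12a2 (NKCC1), the chloride importer, is also made by glia and endothelium. It stood at 86.6, 95.2, 90.6 and 102 CPM in Sham, 90.0, 90.1, 93.9 and 82.7 in Vehicle and 80.8, 72.9, 96.4 and 72.2 in LJP mice, with overlapping groups (log2 fold change -0.07, SE 0.095, adjusted p = 0.576 in edgeR). The 7 markers of endothelium and pericytes summed to 200.2 to 228 CPM in Sham, 303 to 1388 in Vehicle and 199.7 to 284 in LJP mice, and 6 of them were higher in Vehicle than in Sham, a shift whose part in the Slc12a2 level was not tested. Within each mouse, the log2 ratio of Slc12a2 to Slc12a5 was -3.30 ± 0.12 (SD, n = 4) in Sham, -2.74 ± 0.48 in Vehicle and -3.27 ± 0.31 in LJP mice. Its values were -3.43, -3.26, -3.35 and -3.14 in the Sham mice and -2.72, -2.07, -3.04 and -3.12 in the Vehicle mice, so the groups did not overlap, by a narrow margin. The difference of 0.56 (0.34 without Vehicle 2) had a two-sided exact permutation p of 0.0286, the smallest that 4 against 4 mice allow, and 0.257 after Benjamini-Hochberg adjustment over the 9 ratio tests.

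**Figure D2:**
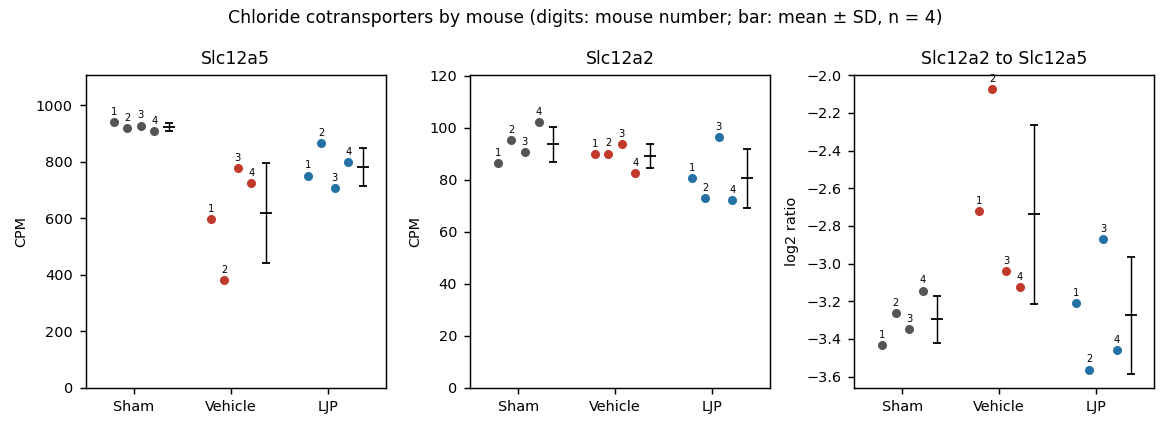
Slc12a5 and Slc12a2 in CPM (axes from 0) and the log2 ratio of Slc12a2 to Slc12a5 (axis not from 0) in each mouse, with mouse numbers and the mean ± SD of 4 mice per group. Vehicle 2 has the lowest Slc12a5 level and the highest ratio (-2.07), and Slc12a2 overlaps between all groups.

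No within-mouse ratio passed the threshold after adjustment. With 9 tests and a smallest possible exact permutation p of 0.0286, a single ratio alone could not pass it. The ratios within the GAD and GABA-B pairs had unadjusted p well above the threshold between Vehicle and Sham. The log2 ratio of Gad1 to Gad2 was 0.62 ± 0.11 (SD, n = 4) in Sham and 0.74 ± 0.41 in Vehicle mice (exact permutation p = 0.6). That of Gabbr1 to Gabbr2 was 1.26 ± 0.094 in Sham and 1.32 ± 0.089 in Vehicle mice (exact permutation p = 0.4). Over the other comparisons, the exact permutation p of the 3 ratios ranged from 0.114 to 0.914.

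**Figure D3:**
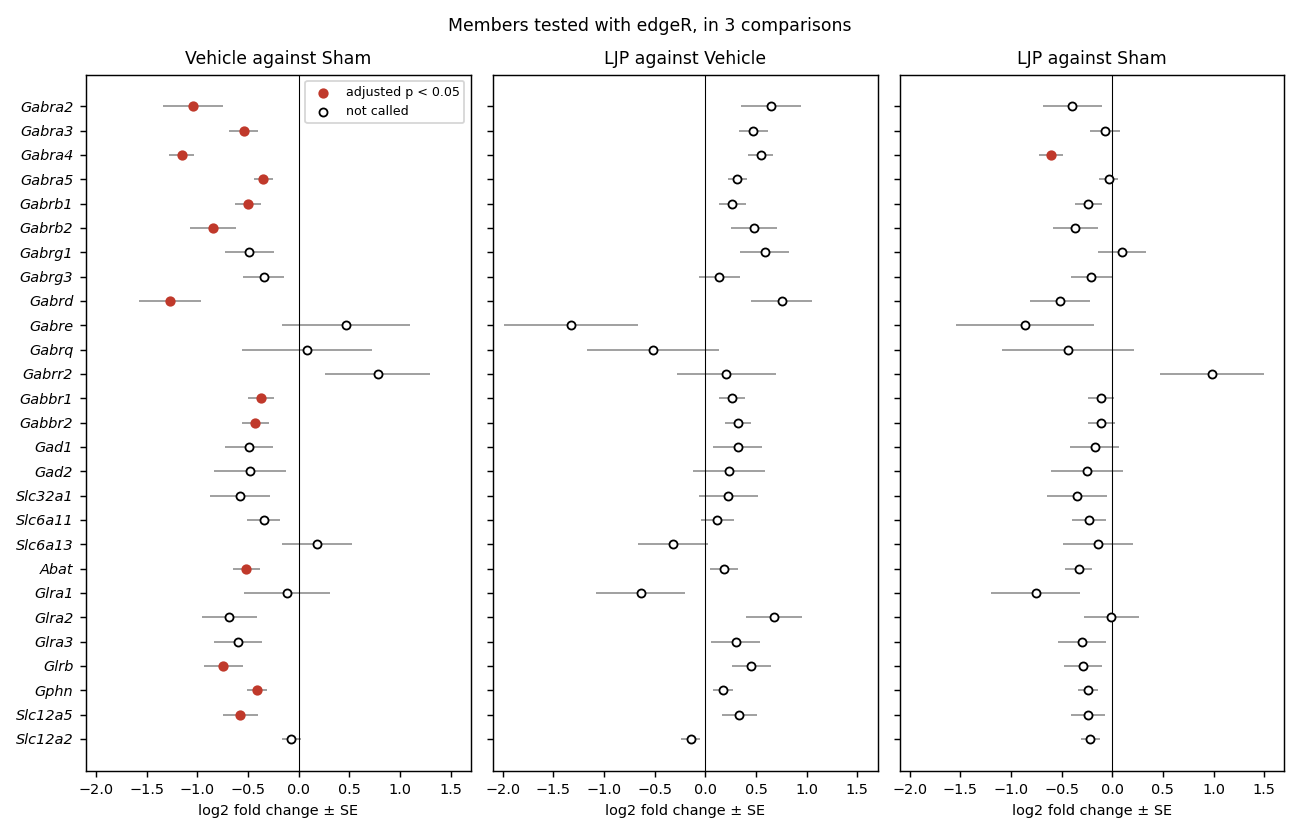
Log2 fold change ± standard error of the 27 tested members in the 3 comparisons, ordered by role, with filled points for members at an edgeR adjusted p below 0.05. In Vehicle against Sham 13 points are filled, all left of 0. In LJP against Vehicle no point is filled and 22 lie right of 0, and in LJP against Sham only Gabra4 is filled. Both comparisons with Vehicle rest on the same 4 Vehicle mice.

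To see how far the members moved apart from neuronal transcripts as a whole, the counts were also scaled to the sum of the 10 neuron markers, an alternative chosen after the data were seen. This scaling shifted the median of all genes by 0.43 between Vehicle and Sham, since the mean of the summed neuron markers was lower in Vehicle mice. The shares of all genes called became 47% higher and 4% lower, from 22.7% and 17.3%. Of the 13 members, 5 were then still lower: Gabrd at -0.93 on the log2 scale (adjusted p = 0.00736 in edgeR), Gabra4 at -0.76 (0.000331), Gabra2 at -0.69 (0.0286), Gabrb2 at -0.49 (0.0149) and Glrb at -0.38 (0.0261). The other 8 were not called on this scale. Among them Gabbr1 (0.015) and Gabra5 (0.064) had positive values, and Gphn (-0.0088) and Gabbr2 (-0.040) were close to 0. No member was called higher. The median of the 27 members on this scale was -0.12, against 0.43 over all genes. The same 5 members passed the stricter thresholds of the study's methods (unadjusted p below 0.01 and absolute log2 fold change over 0.58) under TMM scaling, where 6.39% of all genes were lower.

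**Figure D4:**
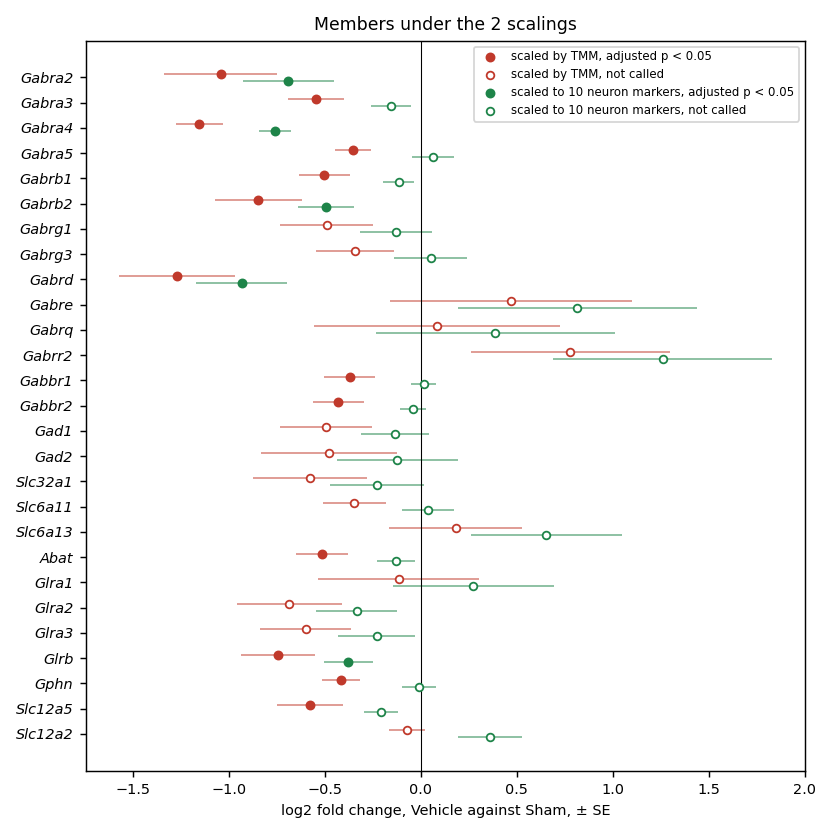
Log2 fold change ± standard error, Vehicle against Sham, of the 27 members under TMM scaling (red) and under scaling to the sum of 10 neuron markers (green), with filled points at an edgeR adjusted p below 0.05. Gabra2, Gabra4, Gabrb2, Gabrd and Glrb stay filled on both scales, and the whole set shifts to the right on the neuron scale.

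Comparing LJP with Vehicle asks whether the treated ischemic mice differed from the untreated ones. No member was called with edgeR, beside 0% of all genes called higher and 0.0228% lower. At an unadjusted p below 0.05, 9 members were higher and none lower, while 12.3% of all genes were higher and 17.4% lower at that level. DESeq2 called Gabra4 (adjusted p = 0.00387), Gabra5 (0.0316) and Gabra3 (0.0326) higher, where it called 3.88% of all genes higher, and edgeR without a filter on low counts called Gabra4 (0.0425), beside 0.166% of all genes. The median log2 fold change of the members was 0.27, against 0.00 over all genes, with 22 positive and 5 negative values. The members' median was 0.12 without Vehicle 2. The Vehicle mice are the same as in the comparison with Sham, so the values of both comparisons share whatever set those 4 mice apart.

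The smallest p of the members was again that of Gabra4, at 62.7 ± 6.06 CPM in LJP against 43.0 ± 8.30 in Vehicle mice (log2 fold change 0.55, SE 0.12, adjusted p = 0.0678 in edgeR). Every LJP mouse lay above every Vehicle mouse in Gabra4, Gabra3 (0.47 (adjusted p = 0.0775, edgeR)), Gabbr2 (0.32 (adjusted p = 0.134, edgeR)) and Glrb (0.45 (adjusted p = 0.14, edgeR)), 4 members, and 5.77% of all genes had that pattern. The margin was narrow in Gabra3, Gabbr2 and Glrb. Their lowest LJP mice stood at 71.73, 350.7 and 145.2 CPM, and their highest Vehicle mice at 71.05, 347.1 and 144.4. Gabra5 had a log2 fold change of 0.31 (adjusted p = 0.0729, edgeR). Gabrd (0.75, adjusted p = 0.128), Glra2 (0.67, 0.131), Gabra2 (0.65, 0.163) and Gabrg1 (0.59, 0.135) had larger values with larger errors in edgeR. In these 4 genes the Vehicle and LJP mice overlapped. Without Vehicle 2 the log2 fold change was 0.20 for Gabbr2, 0.30 for Glrb, 0.45 for Glra2 and 0.34 for Gabrg1. For Gabrd the highest Vehicle mouse (57.1 CPM) lay above the lowest LJP mouse (50.7).

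The presynaptic genes and the chloride cotransporters were not called either. Gad1, Gad2 and Slc32a1 had log2 fold changes of 0.32 (adjusted p = 0.374, edgeR), 0.23 (adjusted p = 0.674, edgeR) and 0.23 (adjusted p = 0.618, edgeR), and when Vehicle 2 was left out that of Gad1 was 0.077 and those of Gad2 and Slc32a1 turned negative (-0.071 and -0.055). Slc12a5 stood at 0.34 (adjusted p = 0.202, edgeR), with 0.16 without Vehicle 2, and Slc12a2 at -0.15 (adjusted p = 0.305, edgeR). The 5 members with negative values were Gabre, Gabrq, Slc6a13, Glra1 and Slc12a2. The count of 0 depended on single Vehicle mice. Without Vehicle 3, 8 members were higher (Gabra2, Gabra3, Gabra4, Gabra5, Gabrd, Gabbr2, Glra2 and Glrb), beside 8.46% of all genes. Without Vehicle 4, 3 were higher (Gabra3, Gabra4 and Gabra5), beside 3.35% of all genes. Without Vehicle 1 or Vehicle 2, none was. On the scale of neuron markers the median of all genes shifted by -0.28, that of the members was 0.025, and no member was called.

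Of the 27 tested members, 21 had their largest coefficient of variation in Vehicle mice, 4 in Sham mice and 2 in LJP mice, and the difference in spread was not tested. Coefficients of variation of Gabrb2 were 8.26% in Sham, 40.1% in Vehicle and 3.71% in LJP mice. For Glrb they were 4.20%, 35.5% and 3.26%, and for Gad2 13.3%, 59.8% and 10.2%. Vehicle mice were the most spread in these 3 genes. Slc12a2 ran the other way, at 7.15% in Sham and 5.26% in Vehicle mice, with the largest spread in LJP mice.

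**Figure D5:**
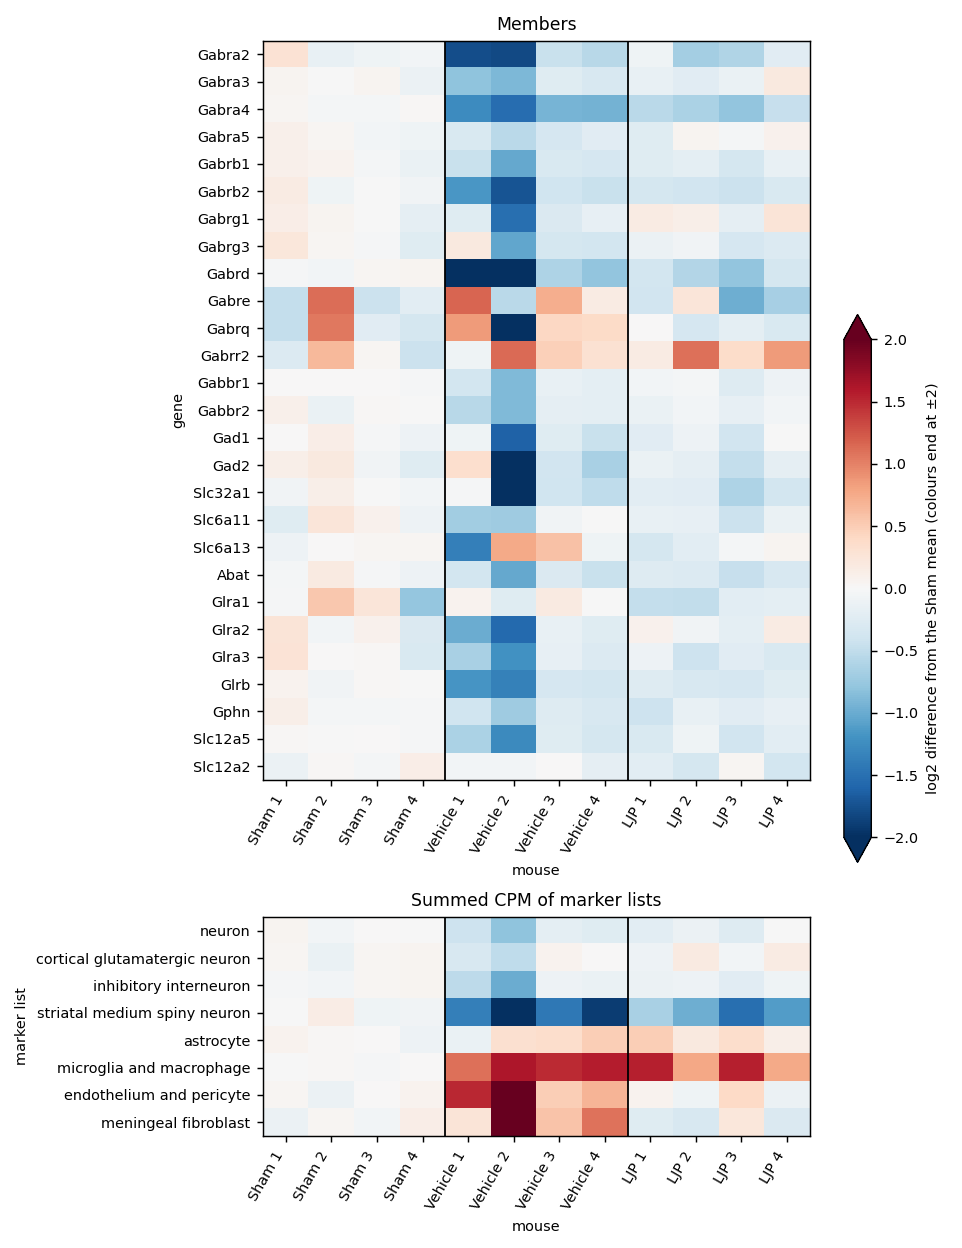
Log2 difference of each mouse from the mean of the Sham mice, for the 27 tested members (from CPM plus 0.5) and for the summed CPM of 8 marker lists, in columns of 4 mice per group. Colours end at 2 on either side. Vehicle 1 and Vehicle 2 are the darkest columns of the members. Vehicle 2 also has the lowest neuron and the highest fibroblast sums, and the striatal marker row is below the Sham mean in all 8 ischemic mice.

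Comparing LJP with Sham shows how the treated ischemic mice stood beside mice without an occlusion. Gabra4 was lower in LJP mice, at 62.7 ± 6.06 against 95.4 ± 2.63 CPM (SD, n = 4), a fold of 0.658 (log2 fold change -0.60, SE 0.12, adjusted p = 0.013 in edgeR). It was the only member called (0.9% of all genes were lower and 3.85% higher). At an unadjusted p below 0.05, 4 members were lower and none higher, beside 7.29% of all genes lower and 11.6% higher. The call of Gabra4 was lost without Sham 1 (adjusted p = 0.0539) or without LJP 3 (0.0562). The median of the members was -0.24 against 0.00 over all genes, and 25 of 27 values were negative, Gabrg1 and Gabrr2 being the exceptions. On the scale of neuron markers the members' median was -0.093, against 0.15 over all genes.

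In 10 members every LJP mouse lay below every Sham mouse, a pattern of 12% of all genes. These were Gabra4, Gabrb1, Gabrb2, Gabrd, Gabbr1, Slc32a1, Abat, Glrb, Gphn and Slc12a5. Gabrd lay at 50.7 to 69.2 CPM in LJP mice and 84.3 to 91.1 in Sham mice (log2 fold change -0.52, SE 0.30, adjusted p = 0.386 in edgeR). Abat lay at 256 to 293 and 328 to 397 CPM (log2 fold change -0.33, SE 0.13, adjusted p = 0.198 in edgeR), and Glrb at 145 to 156 and 174 to 192 (log2 fold change -0.29, SE 0.19, adjusted p = 0.455 in edgeR). When only the LJP and Sham mice were fitted, so that the spread of the Vehicle mice did not enter, 10 members were lower, beside 11.8% of all genes: these were Gabra2, Gabra4, Gabrb1, Gabrb2, Gabrd, Slc32a1, Abat, Glrb, Gphn and Slc12a5. Leaving out Vehicle 2 from the fit of all mice gave 5 (Gabra4, Gabrb1, Slc32a1, Abat and Gphn), beside 5.5% of all genes. Gabra3 (-0.07 (adjusted p = 0.849, edgeR)), Gabra5 (-0.036 (adjusted p = 0.883, edgeR)) and Glra2 (-0.0097 (adjusted p = 0.99, edgeR)) had the values nearest 0.

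Other genes of inhibitory transmission were read from a list of 50, of which 49 were in the table and 48 were tested. Between Vehicle and Sham 20 of the 48 were lower and 7 higher, beside 17.3% and 22.7% of all genes, with a median log2 fold change of -0.25. Among the lower genes with the smallest p were Neto2, an auxiliary protein that binds KCC2 (log2 fold change -1.26, SE 0.19, adjusted p = 0.000627 in edgeR), Plcl2, which takes part in GABA-A receptor trafficking (log2 fold change -0.50, SE 0.10, adjusted p = 0.00208 in edgeR), and Kctd16, an auxiliary GABA-B subunit (log2 fold change -0.89, SE 0.17, adjusted p = 0.00219 in edgeR). Neto2 stood at 74.9 ± 9.40 CPM (SD, n = 4) in Sham, 31.2 ± 9.98 in Vehicle and 45.6 ± 5.71 in LJP mice. Among the 7 higher genes were Gcsh and Shmt2, which take part in mitochondrial glycine metabolism, Gabarap, a GABA-A receptor-associated protein that also acts in autophagy, and Slc12a7, the cotransporter KCC4. Their log2 fold changes were 0.56 (adjusted p = 0.000742, edgeR), 0.74 (adjusted p = 0.000968, edgeR), 0.54 (adjusted p = 0.000838, edgeR) and 1.82 (adjusted p = 0.00234, edgeR). Slc12a7 stood at 7.21 ± 0.967 CPM in Sham, 25.4 ± 15.5 in Vehicle and 10.1 ± 3.33 in LJP mice. None of the 48 was called between LJP and Vehicle with edgeR, where 11 were higher and 8 lower at an unadjusted p below 0.05, beside 12.3% and 17.4% of all genes. DESeq2 called 2 higher and 5 lower, beside 3.88% and 9.48% of all genes. The median there was 0.12, and Gcsh (-0.35), Gabarap (-0.33) and Slc12a7 (-1.33) had the smallest p, each at an edgeR adjusted p of 0.0678. None was called between LJP and Sham with edgeR, where 5 were higher and 6 lower at an unadjusted p below 0.05, beside 11.6% and 7.29% of all genes. DESeq2 called 1 in each direction, beside 5.67% of all genes higher and 1.98% lower. The median there was -0.12, and Neto2 (-0.72 (adjusted p = 0.051, edgeR)), Slc38a5 (0.78 (adjusted p = 0.0893, edgeR)) and Shmt2 (0.35 (adjusted p = 0.133, edgeR)) had the smallest p.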

How the data were processed

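The authors deposited raw counts of poly(A) RNA-seq reads per gene, without normalization, from 12 mice. The labels' processing notes name featureCounts, DESeq2 and the builds GRCm39 and mm10. Gene positions in the table match GRCm38. The aligner and the strand setting are not given in the sources used here, and without strand, reads of overlapping genes cannot be told apart. Groups came from the sample labels.

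Counts were fitted in R 4.3.3 with edgeR 4.0.16 (filterByExpr, TMM, quasi-likelihood test, 1 coefficient per group, all 12 mice), with Benjamini-Hochberg adjustment over all 17558 tested genes and a threshold of 0.05. The standard error is the absolute log2 fold change divided by the square root of F. Within-mouse ratios and unfiltered members used exact permutation tests on log2 of CPM plus 0.5. The lists of other inhibitory genes and markers were written from general knowledge. Members and lists were chosen with earlier results of these data known. Every member is named, those called in at least 1 comparison with the value in every mouse, and of the other inhibitory genes up to 4 per direction with the smallest p in Vehicle against Sham and up to 3 in the other comparisons. A gene that this rule takes is not reported here. Alternatives were DESeq2 1.42.0, RLE and library size scaling, no filter, a 2-group fit, the replicate number as a block, the methods' thresholds, other pseudocounts (0.1 and 2 CPM) for the ratios and leaving out each mouse. The fit was tested on simulated counts. Within groups, counts of any 2 mice were further apart than sampling noise allows (chi-square per degree of freedom at least 2.52 over 18 pairs). A floor of 3 counts corresponds to 0.129 to 0.173 CPM and covers counting error only. Figures were drawn with matplotlib 3.10.9.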

Additional observations from a re-analysis of the deposited data

Results flagged for a closer look

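In 6 of the 90 groups of 4 mice checked, 1 mouse lay far from the others by Dixon's test (the gap to the nearest mouse over the whole range, at the 95% critical value), and chance gives about 1 in 20, or 4.5 such groups. Gabrg1 was low in Vehicle 2, at 4.77 CPM against 11.8 to 12.8 in the other Vehicle mice (ratio 0.871). Among the Sham mice, Gabre was high in Sham 2, at 2.56 against 0.519 to 0.726 CPM (0.899), as was Gabrq, at 4.96 against 1.38 to 1.75 CPM (0.897), and Gphn was high in Sham 1, at 80.2 against 71.5 to 72.3 CPM (0.907). LJP 3 was low in Slc6a11, at 149 against 181 to 184 CPM (0.917), and in Gad2, at 191 against 233 to 242 CPM (0.829).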

How the results depend on the processing

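Between Vehicle and Sham, the count of 13 lower members was 12 to 15 under DESeq2, the other scalings, no filter and the replicate block (8.15% to 17.7% of all genes lower), and 10 in the 2-group fit (11.6%), where Gabbr1, Gabbr2 and Slc12a5 were not called. It was 5 under the methods' thresholds (6.39%) and 5 when scaled to neuron markers (4%). Leaving out each mouse gave 11 to 16 (11.3% to 20.6%). The count of 0 higher members between LJP and Vehicle became 3 with DESeq2 (3.88% of all genes higher) and 1 (Gabra4, adjusted p = 0.0425) without a filter (0.166%), and 0 to 8 when each mouse was left out (0% to 8.46%). The count of 1 lower member between LJP and Sham became 10 in the 2-group fit (11.8% of all genes lower) and 0 to 5 when each mouse was left out (0.241% to 5.5%). The causes of these changes were not tested. Same-numbered mice did not deviate together (correlations from -0.38 to 0.15, 1 of 12 above 0.1), so they share only a number. The replicate block called 12 members lower, 0 higher and 1 lower in the 3 comparisons (15.1% of all genes lower, 0% higher and 0.336% lower). Gabbr1 was the one lost (edgeR adjusted p = 0.0632).

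Of the members called between Vehicle and Sham, Gabra5 (0.064) and Gabbr1 (0.015) changed sign when scaled to neuron markers. All other sign changes were in members not called. In that comparison they were Gabrg3 (0.052), Slc6a11 (0.037), Glra1 (0.27) and Slc12a2 (0.36) when scaled to neuron markers, Slc12a2 (0.0063) by library size, and Gabrq (-0.28 to 0.71), Slc6a13 (-0.11 to 0.48) and Glra1 (-0.44 to 0.22) when each mouse was left out. Between LJP and Vehicle they were Gabrg3 (-0.11), Gabrr2 (-0.16), Slc6a11 (-0.12), Abat (-0.058) and Gphn (-0.084) when scaled to neuron markers, and Gabrg3 (-0.045 to 0.37), Gabrr2 (-0.062 to 0.66), Gad2 (-0.071 to 0.65) and Slc32a1 (-0.055 to 0.47) when each mouse was left out. Between LJP and Sham they were Gabra3 (0.073), Gabra5 (0.11), Gabbr1 (0.038), Gabbr2 (0.043), Slc6a13 (0.0065) and Glra2 (0.14) when scaled to neuron markers, Gabra5 (0.017) and Glra2 (0.043) by library size, Glra2 (0.0081) without a filter, and Gabra5 (-0.076 to 0.029), Gabrq (-0.62 to 0.19) and Glra2 (-0.10 to 0.091) when each mouse was left out.

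For the within-mouse ratios, leaving out each mouse gave differences in Slc12a2 to Slc12a5 of 0.34 to 0.69 (Vehicle minus Sham), -0.67 to -0.31 (LJP minus Vehicle) and -0.11 to 0.12 (LJP minus Sham, -0.023 without Sham 1). Those in Gad1 to Gad2 were -0.029 to 0.30, -0.24 to 0.093 and 0.028 to 0.11, and those in Gabbr1 to Gabbr2 0.012 to 0.099, -0.091 to -0.018 and -0.037 to 0.037 (0.021 without LJP 3 and 0.0025 without LJP 4).

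At these depths Gabra6 and Gabrr1 were at or near the floor of 3 counts, and edgeR without a filter gave them adjusted p of 0.531 to 0.973.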

Other observations

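The 7 choroid plexus markers summed to 32.4 to 915 CPM in Sham, 26.1 to 537 in Vehicle and 22.6 to 391 in LJP mice, so their level varied widely within every group. The 8 astrocyte markers summed to 3706 to 4168, 3604 to 5590.5 and 4303 to 5612 CPM in the same order, with 3 higher and 1 lower between Vehicle and Sham. The 8 oligodendrocyte lineage markers summed to 3698 to 4495, 4625 to 4887 and 3622 to 4591 CPM, with 2 higher. Of the 7 cortical glutamatergic markers 1 was lower, with sums of 4644 to 5247, 3566 to 5329 and 4749 to 5774 CPM. The 9 cerebellar markers summed to 158 to 172, 85.1 to 137 and 129.6 to 152 CPM, with 1 of 8 tested higher and 2 lower, and the 6 thalamic markers to 127 to 159, 136 to 158 and 128 to 135 CPM, with 1 higher and 1 lower.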
